A study of Mus musculus with 11 samples.

Results

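The receptor-dependent part of the G-CSF response is the amount by which the change after G-CSF in epiblast stem cells (EpiSCs) with the GY118F receptor differed from the change in control EpiSCs. It was taken as (GY118F with G-CSF minus GY118F unstimulated) minus (control with G-CSF minus control unstimulated), and it uses all 11 of the 11 arrays. The groups were GY118F EpiSCs after 3 hours of G-CSF (n = 2), GY118F EpiSCs left unstimulated (n = 3), control EpiSCs after 3 hours of G-CSF (n = 3) and control EpiSCs left unstimulated (n = 3). All were mouse EpiSCs of 129xMF1 background and grew in N2B27 medium with Activin and Fgf, and the labels name GY118F as the only transgene and give none for the control. The labels do not say whether a line was 1 clone, what drove the transgene, or whether the unstimulated cultures went through the same handling. Each genotype is represented by a single line label, so the receptor and any other difference between the lines cannot be told apart.

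EpiSCs are pluripotent cells that resemble the epiblast after implantation, and Activin and Fgf in the medium hold them in this state. GY118F is a chimeric receptor in which the outer part of the G-CSF receptor is joined to the inner part of gp130, the shared signalling chain of the interleukin-6 family. The inner part carries a tyrosine-to-phenylalanine change at the site that recruits the phosphatase Shp2. In such a receptor G-CSF activates JAK kinases and the transcription factor STAT3, while the branch that runs through Shp2 to ERK, and the inhibition by Socs3 that uses the same site, are weakened. STAT3 is known for supporting self-renewal of naive embryonic stem cells, an earlier pluripotent state than that of EpiSCs.

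Total RNA was measured on Illumina mouse arrays. Values are on a log2 scale as deposited, where 1 unit is 2-fold if the scale is plain log2, which is not stated. They were already normalized so that all arrays have the same distribution. They ran from 7.11 to 15.22 with a median of 8.16, and arrays of a group correlated at r = 0.994 to 0.998 across 11208 features, against 0.960 to 0.982 between groups. A feature is a gene, represented by its brightest probe, or a probe without a single gene symbol. A difference was called where limma's Benjamini-Hochberg adjusted p over all 11208 features was under 0.05. No label states that the replicates of a group were grown separately, so the p-values rest on a spread that may be technical, and the number of arrays limits the precision. Of 13 EpiSC markers 11 were measured, none with every group mean under the 25th percentile of values (7.62), and their mean level was 9.61 to 9.74 in GY118F EpiSCs with G-CSF, 9.38 to 9.53 in unstimulated GY118F EpiSCs, 10.05 to 10.14 in control EpiSCs with G-CSF and 9.88 to 9.98 in unstimulated control EpiSCs. Csf3r, which encodes the G-CSF receptor, was not analysed here, as its symbol belongs to no measured feature, and the receptor label could not be checked on these values. Il6st, which encodes gp130, lay at 7.65 and 7.65 in GY118F EpiSCs with G-CSF and at 7.33 to 7.54 in the other arrays, near the floor of the values, and its difference of 0.10 ± 0.08 (SE) was not called.

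The change after G-CSF was more upward in GY118F than in control EpiSCs for 432 features (3.85% of all features) and more downward for 240 (2.14%). The upward side was led by the STAT3 feedback inhibitor Socs3, by Stat3 itself, by interferon-type genes around Irf1 and by the secreted Nodal antagonist Lefty1. Lefty1 had the largest difference, 3.97, with unstimulated GY118F values of 7.93, 7.97 and 11.34, and its call depended on single arrays. The downward side was led by the WNT ligand Wnt8a, the transcription factors Sox9, Sall3 and Gbx2 and the Activin antagonist Fst. The median called difference was 0.47 upward and -0.41 downward, and the sizes ranged over 0.23 to 3.97 and 0.24 to 2.26.

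Socs3 is an inhibitor that STAT3 induces and that binds gp130. Its values were 11.99 and 11.94 in GY118F EpiSCs with G-CSF, 8.96, 8.94 and 8.98 in unstimulated GY118F EpiSCs, 8.05, 8.01 and 8.11 in control EpiSCs with G-CSF and 8.19, 8.22 and 8.27 in unstimulated control EpiSCs. The stimulated GY118F arrays lay far above all others, and the stimulated control arrays lay below the unstimulated ones without overlap. The difference of changes was 3.18 ± 0.07 (SE; limma adjusted p = 1.96e-11), made of a rise of 3.00 in GY118F and a fall of -0.17 in control EpiSCs. Stat3 had values of 9.73 and 10.08 in GY118F EpiSCs with G-CSF, 7.92, 7.84 and 7.83 in unstimulated GY118F EpiSCs, 7.80, 7.61 and 7.70 in control EpiSCs with G-CSF and 7.84, 7.89 and 7.90 in unstimulated control EpiSCs. Without G-CSF the lines did not differ by a call in Stat3 (-0.01), and the difference of changes was 2.21 ± 0.12 (SE; limma adjusted p = 2.52e-07). Junb, an AP-1 subunit, had values of 9.01 and 9.09 in GY118F EpiSCs with G-CSF, 7.60, 7.49 and 7.61 in unstimulated GY118F EpiSCs, 7.63, 7.67 and 7.73 in control EpiSCs with G-CSF and 7.79, 7.79 and 7.82 in unstimulated control EpiSCs. Again the stimulated GY118F arrays stood alone, and the difference was 1.61 ± 0.07 (SE; limma adjusted p = 6.04e-08).

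**Figure D1:**
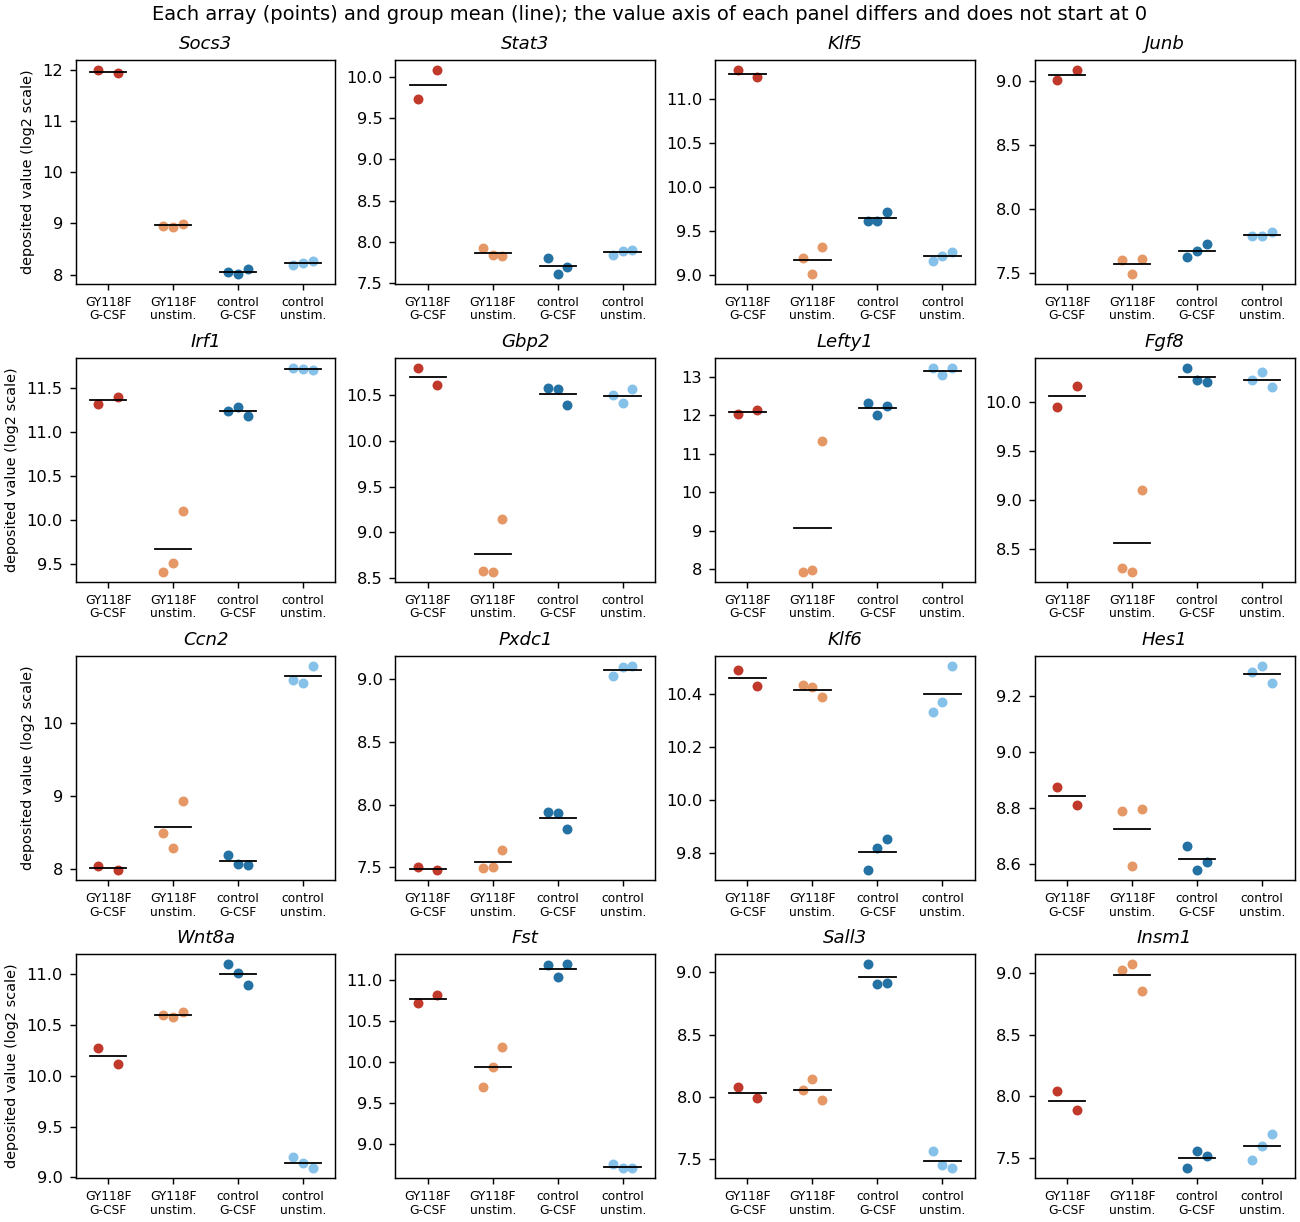
Deposited values (log2 scale) of 16 genes in each array, with GY118F arrays left of control arrays and G-CSF left of unstimulated within a line; points are arrays and lines are group means. Socs3, Stat3, Klf5 and Junb are highest in the 2 stimulated GY118F arrays. Irf1, Gbp2 and Fgf8 are low in unstimulated GY118F EpiSCs, and so is Lefty1 except in replicate 3 (11.34). Ccn2, Pxdc1, Klf6 and Hes1 are lower in stimulated than in unstimulated control EpiSCs, and Wnt8a, Fst and Sall3 are higher.

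Activated STAT proteins are known to bind palindromes of the form TTCNNNGAA. Promoters are shown for the 5 genes with the largest upward difference among those that rose in GY118F EpiSCs without a rise in control EpiSCs and whose RefSeq window, from 250 bases before to 50 bases after the gene start, holds these letters. The 250 bases before the start are printed 5′ to 3′ on the gene's strand (RefSeq, GRCm38.p6), and the capitals mark the match. The windows are chr11:117969367-117969616 on the minus strand for Socs3, chr11:53769764-53770013 for Irf1, chr11:58214727-58214976 for Irgm2, chr11:58199306-58199555 for Igtp and chr15:103502784-103503033 for Pde1b, the last 4 on the plus strand.
Socs3: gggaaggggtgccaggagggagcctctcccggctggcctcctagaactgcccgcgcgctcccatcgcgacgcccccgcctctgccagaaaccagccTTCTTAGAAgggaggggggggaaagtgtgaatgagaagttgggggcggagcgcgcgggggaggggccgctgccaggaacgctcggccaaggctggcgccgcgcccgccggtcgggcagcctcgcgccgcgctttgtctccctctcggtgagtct
Irf1: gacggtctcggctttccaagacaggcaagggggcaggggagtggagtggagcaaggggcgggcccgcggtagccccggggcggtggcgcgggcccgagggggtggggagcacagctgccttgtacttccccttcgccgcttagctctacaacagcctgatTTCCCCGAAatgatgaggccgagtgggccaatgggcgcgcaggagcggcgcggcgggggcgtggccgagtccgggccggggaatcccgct
Irgm2: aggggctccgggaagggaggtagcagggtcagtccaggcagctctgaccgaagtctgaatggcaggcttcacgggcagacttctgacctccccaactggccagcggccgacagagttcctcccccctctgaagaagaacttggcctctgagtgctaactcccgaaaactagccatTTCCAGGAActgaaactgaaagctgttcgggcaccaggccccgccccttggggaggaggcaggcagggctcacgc
Igtp: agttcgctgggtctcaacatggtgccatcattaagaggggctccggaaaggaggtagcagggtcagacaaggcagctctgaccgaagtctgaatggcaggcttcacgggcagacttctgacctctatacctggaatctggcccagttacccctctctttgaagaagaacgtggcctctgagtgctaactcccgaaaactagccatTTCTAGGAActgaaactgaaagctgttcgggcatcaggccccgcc
Pde1b: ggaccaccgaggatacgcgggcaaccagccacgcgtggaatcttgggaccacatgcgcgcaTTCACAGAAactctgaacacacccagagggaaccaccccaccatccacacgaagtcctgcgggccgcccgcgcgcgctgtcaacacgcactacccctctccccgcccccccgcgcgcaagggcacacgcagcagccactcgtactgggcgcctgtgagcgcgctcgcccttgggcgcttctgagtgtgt
The matches begin 154, 90, 75, 45 and 189 bases before the start in Socs3, Irf1, Irgm2, Igtp and Pde1b, in that order. Irf1 encodes an interferon-regulatory transcription factor, Irgm2 and Igtp encode interferon-inducible GTPases, and Pde1b encodes a cyclic nucleotide phosphodiesterase. The windows of the neighbouring genes Irgm2 and Igtp, whose first bases lie 15421 bases apart, share 35 identical bases before and 24 after the match. Their matches differ by the substitution C4T, counted from the first base of the match with the Irgm2 base first. The motif reads the same on both strands, so 1 strand was searched. It was held by 44 of the 292 more upward genes with a RefSeq promoter (15.1%), by 13 of 175 more downward genes (7.43%), by 599 of 7496 measured genes (7.99%) and by 2726 of 32851 RefSeq promoters (8.30%). A gene counted as holding it if any of its promoters did. Among the more upward genes the share was 11 of 37 (29.7%) where GY118F rose and control fell, 19 of 102 (18.6%) where GY118F rose and control was not called, 8 of 70 (11.4%) where control fell and GY118F was not called, and 4 of 46 (8.70%) where both rose. It was 2 of 45 (4.44%) among more downward genes that rose in control EpiSCs and were not called in GY118F EpiSCs. Stat3, Gbp2b, Gbp2, Ngfr, Nodal, Junb and Tmem51 had no match in the window. These shares describe letters in a window and were not tested.

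A more upward difference can be a rise in GY118F EpiSCs, a fall in control EpiSCs, or both. Many features differed between the stimulated and unstimulated arrays of each line: 2000 were higher (17.8%) and 2456 lower (21.9%) in GY118F EpiSCs, and 2187 were higher (19.5%) and 2536 lower (22.6%) in control EpiSCs. Within a line, G-CSF and any difference in handling cannot be told apart. Of the 432 more upward features, 155 (35.9%) rose in GY118F EpiSCs and were not called in control EpiSCs, with median changes of 0.50 and -0.00. A further 55 rose in the GY118F line and fell in the control line, and 72 rose in both lines with the larger rise in GY118F EpiSCs. Another 98 (22.7%) fell in control EpiSCs and were not called in GY118F EpiSCs, with median changes of 0.02 in GY118F and -0.39 in control EpiSCs. The remaining 52 fell in both lines, less in GY118F EpiSCs. A line without a call may still have changed: for Lefty1, among the 155, the control change was -0.97. Of the 240 more downward features, 79 (32.9%) fell in GY118F EpiSCs and were not called in control EpiSCs, 60 rose in control EpiSCs and were not called in GY118F EpiSCs, 31 fell in GY118F and rose in control EpiSCs, 36 rose in both and 34 fell in both. The counts moved with single arrays: the 432 were 278 and the 155 were 93 without GY118F G-CSF replicate 2, and leaving out replicate 2 of unstimulated GY118F EpiSCs or of unstimulated control EpiSCs gave 151 and 159 in place of 240. The 98 were 59 to 62 without GY118F G-CSF replicate 2, control G-CSF replicate 2 or 3 or unstimulated control replicate 3, and the 79 were 39 to 52 without any of 6 single arrays and 125 without unstimulated GY118F replicate 3. The 52 were 26 without GY118F G-CSF replicate 2, 33 without unstimulated control replicate 3, 34 without unstimulated GY118F replicate 2 and at most 48 without any 1 array. The 31 were 20 without control G-CSF replicate 2 and at most 35. The 36 were 18 without GY118F G-CSF replicate 2, 21 without GY118F G-CSF replicate 3, 23 without control G-CSF replicate 1 or unstimulated control replicate 2 or 3, and at most 33. The 34 were 19 without unstimulated control replicate 2 or 3, 20 without unstimulated GY118F replicate 2, 21 without control G-CSF replicate 2 and 80 without unstimulated GY118F replicate 3.

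The lines contributed more evenly to all called differences than to the largest ones. The larger change of the pair lay in GY118F EpiSCs for 260 of the 432 more upward features (60.2%) and for 132 of the 240 more downward ones (55.0%). Past 2-fold, 43 features were more upward and 37 of them had the larger change in GY118F EpiSCs. Past 2-fold downward there were 12, of which 2 had the larger change in GY118F EpiSCs and 10 had the larger change in control EpiSCs. No test of these counts was made.

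**Figure D2:**
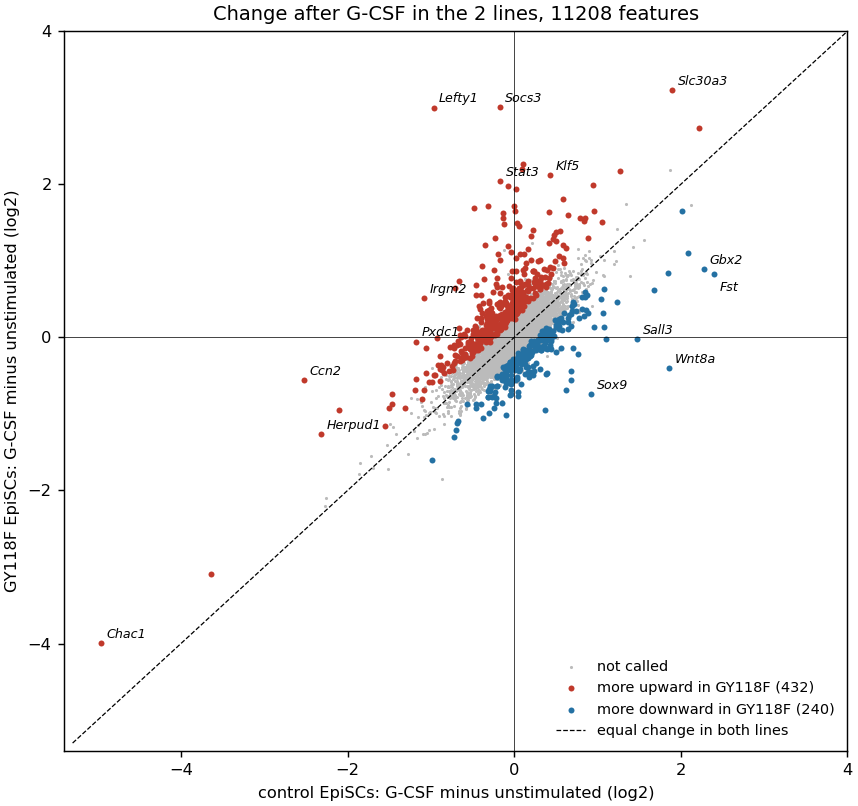
Change after G-CSF in GY118F EpiSCs (vertical axis) against the change in control EpiSCs (horizontal axis), both in log2 units, for 11208 features; red points are the 432 more upward and blue points the 240 more downward differences, and the dashed line marks equal change. Socs3, Stat3 and Lefty1 lie high above 0 on the vertical axis, whereas Wnt8a, Sall3 and Sox9 lie to the right of 0 on the horizontal axis.

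The calls of each list are read against 3.85% more upward and 2.14% more downward of all features. The lists were chosen with earlier results of these data known, so high shares may be partly fixed by that choice and were not tested. Some genes, such as Junb, Cebpb, Fgf8 and Cdx2, belong to several lists, so the shares of different lists partly repeat the same genes. Among the 41 lists STAT3 feedback and early targets had the highest share of more upward members, 11 of 17 measured (against 3.85% of all features), and none was more downward. The median difference was 0.49 (all features, -0.01), with median changes of 0.47 in GY118F and -0.02 in control EpiSCs. In GY118F EpiSCs 12 of the 17 rose and 1 fell, against 17.8% and 21.9% of all features. In control EpiSCs 2 rose and 6 fell, against 19.5% and 22.6%. Stat3, Junb, the adhesion molecule Icam1 (0.84 ± 0.07, SE), and the IκB-like cofactor Bcl3 (0.49) rose in GY118F EpiSCs and were not called in control EpiSCs. Cish, another cytokine-signalling inhibitor, was higher by 0.26 in GY118F and lower by -0.29 in control EpiSCs. Socs2 rose in both lines, by 1.56 in GY118F and by 0.79 in control EpiSCs, and Gadd45g likewise, by 0.74 and 0.31. The difference of Cebpb (0.92), a transcription factor, came from control EpiSCs, where it fell by -1.06, with a GY118F change of -0.13 that was not called. Of 17 measured receptor and JAK components of the gp130 pathway only Stat3 was called.

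Immediate early genes, transcription factors and RNA-binding proteins that respond within minutes to hours to many signals, were more upward in 7 of 16 and more downward in 1. Fosl2, an AP-1 subunit, had values of 8.51 and 8.68 in GY118F EpiSCs with G-CSF and between 7.36 and 7.56 in the other 9 arrays, a difference of 1.26 ± 0.08 (SE). Those 9 values lay under 7.62, so the size of the rise is taken against dim signal. Zfp36, which promotes decay of cytokine messenger RNAs, rose by 1.10 in GY118F and fell by -0.20 in control EpiSCs, and its stimulated GY118F values of 9.11 and 8.95 exceeded the other 9 arrays, which reached 8.08 at most. Fos rose in both lines, by 1.34 in GY118F and 0.47 in control EpiSCs, and Jun (0.64) rose in GY118F EpiSCs and was not called in control EpiSCs. Klf6 and Ier3 were differences of the control line: Klf6 had values of 10.49 and 10.43 in GY118F EpiSCs with G-CSF, 10.39 to 10.43 in unstimulated GY118F EpiSCs, 9.74 to 9.85 in control EpiSCs with G-CSF and 10.33 to 10.50 in unstimulated control EpiSCs. Egr2 was the more downward member (-0.43), a call lost without any of 10 single arrays (limma adjusted p up to 0.122).

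Interferon response genes and GTPases were more upward in 11 of 21 measured members and more downward in none, with median changes of 0.14 in GY118F and -0.15 in control EpiSCs. In GY118F EpiSCs 10 rose and 2 fell, against 17.8% and 21.9% of all features, and in control EpiSCs 2 rose and 8 fell, against 19.5% and 22.6%. Irf1 was at 11.32 and 11.40 in GY118F EpiSCs with G-CSF, 9.41, 9.51 and 10.10 in unstimulated GY118F EpiSCs, 11.24, 11.29 and 11.18 in control EpiSCs with G-CSF and 11.73, 11.71 and 11.70 in unstimulated control EpiSCs. GY118F minus control was 0.13 with G-CSF, without a call, and -2.04 without G-CSF, so the rise in GY118F EpiSCs ended at about the level of stimulated control EpiSCs. The guanylate-binding protein genes Gbp2b and Gbp2 had differences of 2.15 ± 0.23 (SE) and 1.93 ± 0.19 (SE), and both rose in GY118F EpiSCs with control changes of 0.11 and 0.02. Irgm2 was at 8.30 and 8.40 in GY118F EpiSCs with G-CSF, 7.76 to 7.90 in unstimulated GY118F EpiSCs, 8.06 to 8.18 in control EpiSCs with G-CSF and 9.21 to 9.23 in unstimulated control EpiSCs. Its difference of 1.60 was made more of the fall in control EpiSCs (-1.08) than of the rise in GY118F EpiSCs (0.51), and Igtp (1.35), Isg15 (0.66) and Irf9 (0.54) also rose in the GY118F line and fell in the control line. A further 3 members fell in control EpiSCs and were not called in GY118F EpiSCs. None of the 11 was a gap between the lines that was called only with G-CSF: the gap turned round in 5, was called only without G-CSF in 2, narrowed in 3 and widened in 1. Of all 432 more upward features, 147 had a gap called only with G-CSF.

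NF-kB pathway genes were more upward in 4 of 8. Cd40, a costimulatory receptor, rose by 2.20 in GY118F EpiSCs with 0.09 in control EpiSCs, and the subunit gene Rela rose by 0.55 in GY118F EpiSCs. The inhibitor Nfkbia (0.29) fell in control EpiSCs and was not called in GY118F EpiSCs, and Tnfaip2 (0.47) fell less in GY118F EpiSCs. Of 13 antigen presentation and immunoproteasome genes 2 were called: the immunoproteasome subunit Psmb8 (0.57 ± 0.10, SE), which rose in GY118F EpiSCs, and the activator Psme1 (0.36), which fell in control EpiSCs. The Psme1 call was lost without GY118F G-CSF replicate 3 (limma adjusted p = 0.0582) and the Nfkbia call without any of 7 single arrays (limma adjusted p up to 0.126).

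Nodal, a ligand of the Activin receptors, and its inhibitors Lefty1 and Lefty2 were the 3 more upward members of 15 measured Nodal and Activin genes. Lefty1 was at 12.03 and 12.13 in GY118F EpiSCs with G-CSF, 7.93, 7.97 and 11.34 in unstimulated GY118F EpiSCs, 12.33, 12.02 and 12.23 in control EpiSCs with G-CSF and 13.22, 13.04 and 13.22 in unstimulated control EpiSCs. Unstimulated GY118F replicate 3 lay near the stimulated arrays and far from its own group. With all arrays the difference was 3.97 ± 0.97 (SE; limma adjusted p = 0.0295), a call lost without any single array other than control G-CSF replicate 1 and unstimulated GY118F replicate 3 (9 arrays, limma adjusted p up to 0.0863). Without unstimulated GY118F replicate 3 it was 5.09 (limma adjusted p = 2.36e-10), and the control change of -0.97, not called with all arrays, was called as well (limma adjusted p = 1.62e-06). Nodal was at 9.86 and 9.89 in GY118F EpiSCs with G-CSF, 7.86, 7.75 and 9.07 in unstimulated GY118F EpiSCs, 10.59 to 10.72 in control EpiSCs with G-CSF and 10.65 to 10.69 in unstimulated control EpiSCs. Its difference of 1.64 rested on GY118F EpiSCs, since the control change was 0.01. The Nodal call was lost without GY118F G-CSF replicate 2 or 3 (limma adjusted p = 0.0606 and 0.0573), and the Lefty2 call (0.74) without GY118F G-CSF replicate 2 (limma adjusted p = 0.0522). On the downward side Fst, which binds Activin, had a difference of -1.58, and the cofactor gene Foxh1 one of -0.31, a call lost without any of 10 single arrays (limma adjusted p up to 0.109).

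Among FGF ligands and receptors 2 of 8 were more upward and 1 more downward. Fgf8 was at 9.95 and 10.16 in GY118F EpiSCs with G-CSF, 8.31, 8.27 and 9.10 in unstimulated GY118F EpiSCs, 10.20 to 10.34 in control EpiSCs with G-CSF and 10.15 to 10.30 in unstimulated control EpiSCs. Stimulated GY118F EpiSCs were thus near control EpiSCs (-0.20, not called), and the difference was 1.46 ± 0.25 (SE). Another Fgf8 probe had a difference of 0.19, which was not called. The related ligand Fgf17 (0.49) rose in both lines, by 0.88 in GY118F and 0.40 in control EpiSCs. The receptor Fgfr2 (-1.12 ± 0.15, SE) rose by 1.11 in control EpiSCs and was not called in GY118F EpiSCs. FGF and ERK feedback genes were split, with 3 of 14 more upward and 2 more downward: the phosphatase gene Dusp5 (0.84) was more upward, and Dusp4 (-0.34) and the ETS factor gene Etv4 (-0.39), which rose in both lines, were more downward. Etv5 (0.49) and Phlda1 (0.48) were more upward with calls that were lost without any of 2 and any of 5 single arrays (limma adjusted p up to 0.0939 and 0.123), and the Dusp4 call without GY118F G-CSF replicate 3 (limma adjusted p = 0.0630).

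BMP pathway and ID genes were more upward in 3 of 13. The ligand Bmp4 (0.62) and Id1 (0.58), a BMP-induced inhibitor of helix-loop-helix factors, rose in the GY118F line and fell in the control line, and Msx1 (0.29) rose in both, a call lost without any of 10 single arrays (limma adjusted p up to 0.138). Bmp4 fell by -0.47 in control EpiSCs and rose by 0.15 in GY118F EpiSCs, so most of its difference was the control change. In the list of trophoblast genes with Tfap2c 4 of 10 were more upward and 1 more downward. Of these, the more upward Bmp4 and Krt8 and the more downward Cdx2 count in other lists as well. Tfap2c, an AP-2 transcription factor, rose by 1.99 in GY118F and 0.95 in control EpiSCs, Gata2 (0.49) rose in GY118F EpiSCs, and Krt8 (0.50) fell in control EpiSCs. The mean level of this list was 8.18 to 8.23 in GY118F EpiSCs with G-CSF, 7.81 to 7.85 in unstimulated GY118F EpiSCs, 8.06 to 8.12 in control EpiSCs with G-CSF and 7.86 to 7.89 in unstimulated control EpiSCs, with 3 of its members under the 25th percentile in every group. Of the other marker lists, 0 of 4 measured fibroblast, 0 of 2 haematopoietic and 0 of 6 endoderm genes were called, and of 3 neural progenitor genes Hes5 was (-0.30), a call lost without any of 6 single arrays (limma adjusted p up to 0.0742). In bulk RNA more cells of a type and more RNA per cell cannot be told apart, and the part of other cell types in the differences was not tested.

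Klf5, a Krüppel-like factor of naive pluripotent cells, was the more upward member among 8 measured naive pluripotency genes, and Gbx2 the more downward one. Klf5 was at 11.33 and 11.25 in GY118F EpiSCs with G-CSF, 9.19, 9.02 and 9.32 in unstimulated GY118F EpiSCs, 9.61 to 9.72 in control EpiSCs with G-CSF and 9.17 to 9.27 in unstimulated control EpiSCs. It rose in both lines, by 2.12 in GY118F and 0.43 in control EpiSCs, and the difference was 1.69 ± 0.10 (SE; limma adjusted p = 1.05e-06). Gbx2, a homeobox factor, rose by 0.89 in GY118F and by 2.28 in control EpiSCs. Its level stayed higher in GY118F EpiSCs, with 13.32 and 13.21 in GY118F EpiSCs with G-CSF, 12.26 to 12.44 in unstimulated GY118F EpiSCs, 11.74 to 11.99 in control EpiSCs with G-CSF and 9.49 to 9.73 in unstimulated control EpiSCs. Of 17 core and shared pluripotency genes only Dppa4 was called (-0.36), and this call was lost without any of 6 single arrays (limma adjusted p up to 0.0780). Nanog had a difference of 0.34 ± 0.22 (SE) and Pou5f1 of 0.05 ± 0.12 (SE), neither called. In the primed epiblast list Wnt8a and the carbonic anhydrase Car14 (-0.68) were more downward and Otx2 more upward, whereas Fgf5 (0.23 ± 0.17, SE) was not called. The Car14 and Otx2 (0.39) calls were each lost without any of 7 single arrays (limma adjusted p up to 0.0921 and 0.111), and Otx2 stayed lower in stimulated GY118F than in stimulated control EpiSCs (-1.69).

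Cholesterol and fatty acid synthesis genes were more upward in 6 of 22 and more downward in none. Cyp51 (0.70 ± 0.09, SE), Insig1 (0.52) and Lss (0.51) rose in GY118F EpiSCs and were not called in control EpiSCs, Msmo1 (0.62) rose in the GY118F line and fell in the control line, Hsd17b7 (0.62) rose in both and Fdps (0.44) fell in control EpiSCs. Insig1 encodes a feedback protein of sterol sensing and the others encode enzymes of the pathway. In GY118F EpiSCs 9 of the 22 rose and 1 fell, against 17.8% and 21.9% of all features, and in control EpiSCs 4 rose and 5 fell, which is close to the shares of all features there (19.5% and 22.6%). The Insig1, Lss and Fdps calls were lost without any of 3, any of 5 and 1 single array (limma adjusted p up to 0.0746, 0.117 and 0.0690), for Fdps GY118F G-CSF replicate 2.

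Other genes with a larger rise in GY118F EpiSCs belonged to further lists or to none. The neurotrophin receptor gene Ngfr had values of 9.65 and 9.57 in GY118F EpiSCs with G-CSF and 7.80 to 8.26 in the other 9 arrays, a difference of 1.72 ± 0.11 (SE). Bhlhe40, a transcriptional repressor, had a difference of 1.53 ± 0.20 (SE), the lamin gene Lmna of 1.19 ± 0.11 (SE) and the pro-apoptotic BCL2 family gene Bcl2l11 of 0.82 ± 0.09 (SE), each with a rise in GY118F EpiSCs and no call in control EpiSCs. Timp1, an inhibitor of matrix proteases, rose by 1.40 in GY118F and 0.22 in control EpiSCs. The zinc transporter gene Slc30a3 rose in both lines, by 3.23 in GY118F and 1.90 in control EpiSCs, and the WNT receptor gene Fzd10 by 1.81 and 0.59. The homeobox gene En2 rose by 1.64 in GY118F and 0.42 in control EpiSCs. Xbp1, a transcription factor of the unfolded protein response, rose by 0.77 in GY118F and fell by -0.21 in control EpiSCs. Pde1b (1.31) lost its call without GY118F G-CSF replicate 2 (limma adjusted p = 0.0510).

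The 98 more upward features that fell in control EpiSCs and were not called in GY118F EpiSCs were led by Pxdc1. Its values were 7.50 and 7.48 in GY118F EpiSCs with G-CSF, 7.50 to 7.64 in unstimulated GY118F EpiSCs, 7.80 to 7.94 in control EpiSCs with G-CSF and 9.02 to 9.10 in unstimulated control EpiSCs. In GY118F EpiSCs it lay below or at the edge of the 25th percentile of values in both states. Pdlim3 (0.92 ± 0.08, SE), a PDZ and LIM domain protein gene, did so too, at 7.53 to 7.58 in all 5 GY118F arrays. Cebpb was well measured in both lines, with 9.03 and 8.95 in GY118F EpiSCs with G-CSF, 8.98 to 9.32 in unstimulated GY118F EpiSCs, 8.91 to 9.08 in control EpiSCs with G-CSF and 9.96 to 10.09 in unstimulated control EpiSCs. Hes1 (0.78 ± 0.09, SE), a repressor known as a Notch target, fell by -0.66 in control EpiSCs, and Tdrd7 (0.68 ± 0.09, SE) by -0.64. Tdrd7, Cebpb, Krt8 and Actn1 (0.39) were alike in that unstimulated control EpiSCs stood above the other 3 groups: before G-CSF the GY118F line was lower by -0.65, -0.90, -0.46 and -0.40, and with G-CSF the lines did not differ by a call. The Actn1 call was lost without any of 8 single arrays (limma adjusted p up to 0.0985). Klf6 differed from these, since the lines were alike without G-CSF (0.02) and apart with it (0.66). Serpinf1 (0.65) and Cd59a (0.66) were also in this class, with calls lost without GY118F G-CSF replicate 2 and without any of 6 single arrays (limma adjusted p up to 0.0823 and 0.113).

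Smaller falls in GY118F EpiSCs made up the 52 features that fell in both lines. Ccn2, a matricellular protein gene known as a YAP target, had values of 8.05 and 7.99 in GY118F EpiSCs with G-CSF, 8.49, 8.30 and 8.93 in unstimulated GY118F EpiSCs, 8.19, 8.07 and 8.07 in control EpiSCs with G-CSF and 10.58, 10.54 and 10.77 in unstimulated control EpiSCs. The stimulated lines ended within -0.09 of each other without a call, and the difference of 1.97 ± 0.18 (SE) came with a starting level that was lower by -2.06 in GY118F EpiSCs. Of 15 YAP and CCN targets 1 was more upward, Ccn2, and 1 more downward, the ectonucleotidase gene Nt5e (-1.07). ATF4 stress effectors fell in 21 of 22 cases in GY118F EpiSCs and in 22 of 22 in control EpiSCs, against 21.9% and 22.6% of all features. Of the 22, 4 were more upward, against 3.85% of all features. Chac1, which degrades glutathione, fell by -3.99 in GY118F and -4.96 in control EpiSCs. The gene was at 8.94 and 8.76 in GY118F EpiSCs with G-CSF, 12.79 to 12.90 in unstimulated GY118F EpiSCs, 8.13 to 8.26 in control EpiSCs with G-CSF and 13.13 to 13.18 in unstimulated control EpiSCs. Nupr1 (1.16), Trib3 (0.55) and Herpud1 (1.05), the last from the list of ER chaperones and the XBP1 branch, also fell less in GY118F EpiSCs, and Herpud1 was then higher in stimulated GY118F than in stimulated control EpiSCs by 0.84.

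On the downward side the largest differences were rises that the control line had and the GY118F line lacked or had to a smaller extent. Wnt8a was at 10.28 and 10.11 in GY118F EpiSCs with G-CSF, 10.60, 10.58 and 10.63 in unstimulated GY118F EpiSCs, 11.10, 11.02 and 10.90 in control EpiSCs with G-CSF and 9.20, 9.14 and 9.09 in unstimulated control EpiSCs. The groups did not overlap, and the lines changed places: GY118F EpiSCs were above control EpiSCs by 1.45 without G-CSF and below by -0.81 with it. The difference was -2.26 ± 0.09 (SE; limma adjusted p = 1.83e-08), made of a fall of -0.40 in GY118F and a rise of 1.86 in control EpiSCs. Sall3, a zinc finger factor of the SALL family, was at 8.08 and 7.99 in GY118F EpiSCs with G-CSF, 7.98 to 8.14 in unstimulated GY118F EpiSCs, 8.91 to 9.06 in control EpiSCs with G-CSF and 7.43 to 7.56 in unstimulated control EpiSCs. The GY118F change was -0.03 and the control change 1.48. Fst rose in both lines, by 0.82 in GY118F and 2.40 in control EpiSCs. The protease inhibitor gene Slpi (-0.94), the cyclin gene Ccnd2 (-0.83), the RAS family gene Eras (-0.70) and the homeobox gene Meis2 (-0.98) rose in control EpiSCs by 1.08, 0.96, 0.56 and 0.76. None of these was called in GY118F EpiSCs. Primitive streak genes were more downward in 3 of 11, namely Evx1, Cdx2 (-0.77) and Nkx1-2 (-0.53), and each rose in control EpiSCs, while Fgf8 was the more upward member. Evx1 rose by 0.85 in GY118F and 1.85 in control EpiSCs, and Cdx2 by 0.46 and 1.23.

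Homeobox patterning factors were more downward in 5 of 14 and more upward in 2, and SOX and SALL factors more downward in 4 of 12 and more upward in none. For comparison 2.14% of all features were more downward. Sox9 was at 10.29 and 10.39 in GY118F EpiSCs with G-CSF, 11.22, 11.15 and 10.88 in unstimulated GY118F EpiSCs, 9.96, 9.78 and 9.74 in control EpiSCs with G-CSF and 9.02, 8.84 and 8.85 in unstimulated control EpiSCs. It fell by -0.75 in GY118F and rose by 0.92 in control EpiSCs, and Irx3 (-1.31) did likewise. In 4 of the 5 homeobox genes the GY118F line was higher with and without G-CSF and the gap narrowed. Sox11 (-0.44), Sall2 (-0.31) and Irx2 (-0.40) lost their calls without 1, any of 9 and any of 9 single arrays (limma adjusted p up to 0.0630, 0.142 and 0.186), for Sox11 GY118F G-CSF replicate 3. Genes that fell in GY118F EpiSCs and were not called in control EpiSCs included the neuroendocrine zinc finger factor Insm1, with 8.04 and 7.89 in GY118F EpiSCs with G-CSF, 8.85 to 9.07 in unstimulated GY118F EpiSCs, 7.42 to 7.56 in control EpiSCs with G-CSF and 7.48 to 7.70 in unstimulated control EpiSCs. Its difference was -0.92 ± 0.11 (SE). Cbln1 (-0.71), a synaptic organizer, Mbp (-0.69), which encodes myelin basic protein, and the WNT receptor gene Fzd2 (-0.52) fell likewise, and each was higher in GY118F than in control EpiSCs without G-CSF. In control EpiSCs Insm1, Cbln1 (7.56 to 7.71) and Mbp (7.48 to 7.60) lay near or under 7.62, the 25th percentile of values, in both states, so a fall there could hardly have been measured.

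The same differences can be read as a change in the distance between the lines. Stimulated GY118F EpiSCs were higher than stimulated control EpiSCs in 1743 features (15.6%) and lower in 1609 (14.4%), and without G-CSF the GY118F line was higher in 1873 (16.7%) and lower in 1850 (16.5%). A difference of changes is the first of these gaps minus the second, so its calls and theirs share their values. Of the 432 more upward features, 147 had a gap that was called only with G-CSF, 116 were lower in the GY118F line before G-CSF and not different by a call with it, and 54 were lower before and higher after. Higher in both states were 57, lower in both 57, and 1 was called in neither. Of the 240 more downward features, 60 had a gap called only with G-CSF, 65 were higher in GY118F EpiSCs before G-CSF and not different by a call with it, 19 were higher before and lower after, 56 were higher in both states, 39 lower in both and 1 in neither. Against these 147 of 432, more upward STAT3 targets had a gap only with G-CSF in 5 of 11. Immediate early genes had one in 5 of 7 and interferon genes in none of 11, and these small counts were not tested. Both stimulated GY118F arrays lay above all other 9 arrays in 206 of the 432 features (47.7%, against 9.30% of all features) and below them in 59 of the 240 (24.6%, against 9.95%). These shares are partly fixed by the choice of called features.

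**Figure D3:**
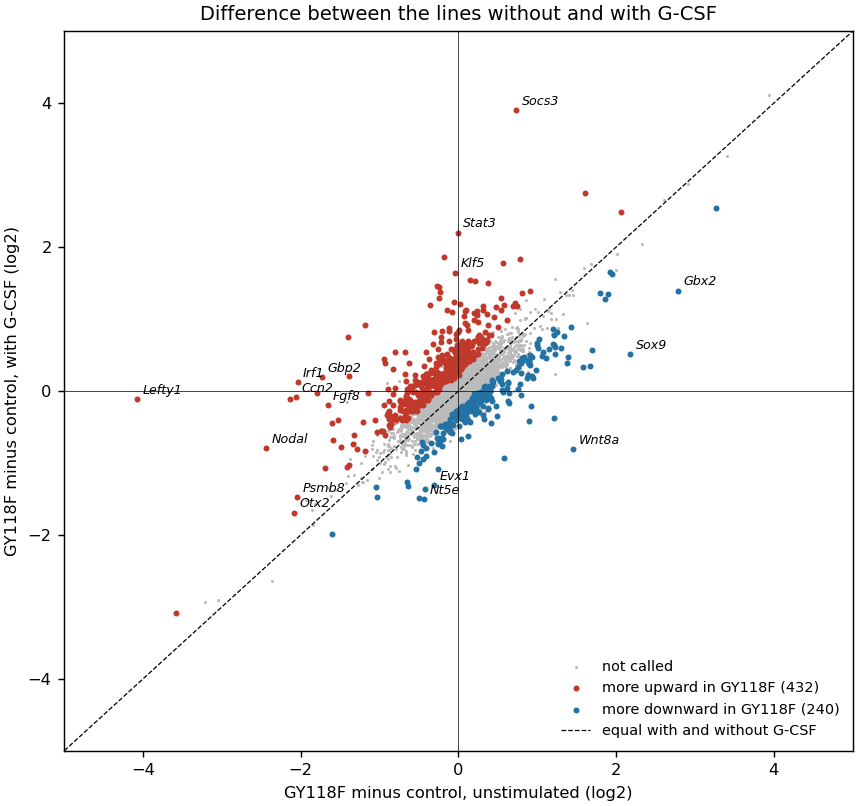
GY118F minus control with G-CSF (vertical axis) against GY118F minus control without G-CSF (horizontal axis), both in log2 units, for 11208 features; red points are the 432 more upward and blue points the 240 more downward differences, and the dashed line marks an equal gap. Stat3 and Klf5 lie near 0 on the horizontal axis, whereas Lefty1, Irf1, Gbp2 and Ccn2 lie left of it and near 0 on the vertical axis.

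Glycolysis and MYC genes moved in both lines without a called difference. None of 25 glycolysis and hypoxia genes was called, while 21 of them fell in GY118F and 20 in control EpiSCs, against 21.9% and 22.6% of all features. None of 21 MYC and ribosome biogenesis genes was called, while 15 rose and 1 fell in GY118F EpiSCs and 14 rose in control EpiSCs, against rises of 17.8% and 19.5% of all features. None of 18 cytosolic ribosomal protein genes or 27 respiratory chain genes was called either. In those lists the changes within each line were few or near the shares of all features: 1 ribosomal protein gene rose and 1 fell in GY118F EpiSCs, 2 rose and 4 fell in control EpiSCs, and 7 respiratory chain genes fell in each line. In the mitotic list 1 of 20 was called (Plk1, -0.38) and in the list of S phase genes 1 of 24 (Cdt1, -0.44), both more downward, and the Plk1 call was lost without any of 9 single arrays (limma adjusted p up to 0.159). A missing call does not show that the changes were equal. In other lists the calls were 1 to 3 a direction, and their shares are read against 3.85% more upward and 2.14% more downward of all features. Above those shares were WNT genes, more upward in 3 and more downward in 3 of 24 (12.5% each), and, on the upward side, extracellular matrix genes with 3 of 23 (13.0%), p53 targets with 2 of 16 (12.5%), cytoskeletal SRF targets with 2 of 14 (14.3%) and ER chaperones and XBP1 branch genes with 2 of 19 (10.5%). With 1 call each, a share says little: cytosolic chaperones were more upward in 1 of 23 (Bag3; 4.35%), BCL2 family genes in 1 of 13 and cadherin and epithelial-mesenchymal genes in 1 of 15. Amino acid genes were more upward in 1 and more downward in 1 of 19, and of 10 DNA methylation genes Mbd2 (-0.37), which binds methylated DNA, was more downward. In all, 34 of the 41 lists had a called member, and the lists covered 75 of the 432 more upward features (17.4%) and 29 of the 240 more downward ones (12.1%).

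**Figure D4:**
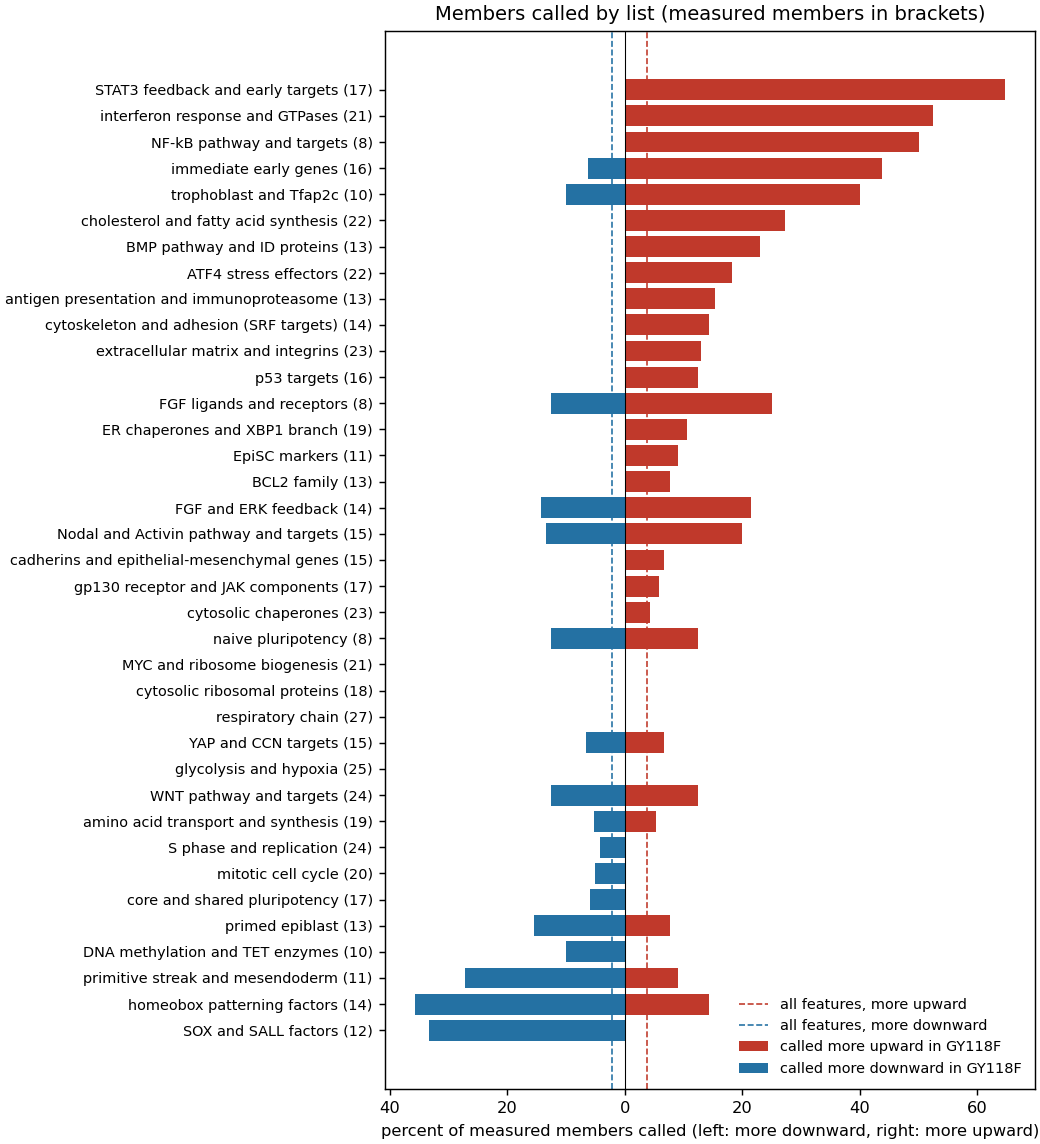
Percent of each list's measured members (number in brackets; lists with 8 or more) called more upward (red, right) or more downward (blue, left) in GY118F EpiSCs, with dashed lines at the share of all features. STAT3 targets (11 of 17) and interferon genes (11 of 21) have the highest upward shares, and homeobox (5 of 14) and SOX and SALL factors (4 of 12) the highest downward shares. The lists were chosen with earlier results of these data known, and some share members.

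**Figure D5:**
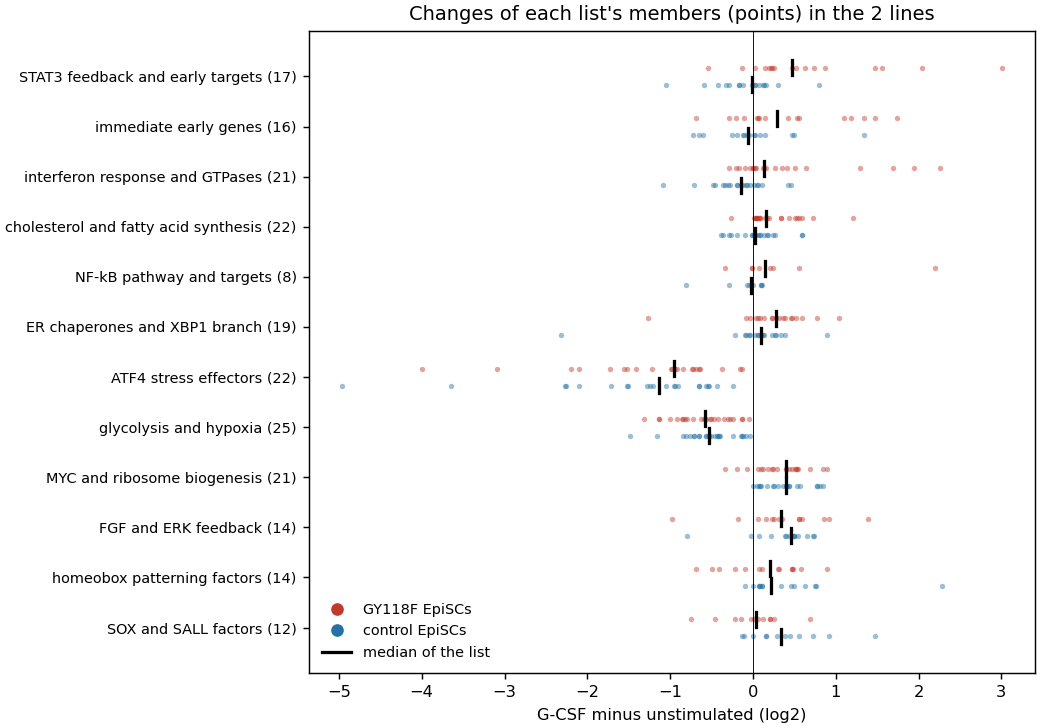
Change after G-CSF (log2) of each measured member (points) of 12 lists in GY118F EpiSCs (red, upper line of each pair) and control EpiSCs (blue, lower line), with black bars at the list medians. The STAT3 list has medians of 0.47 in GY118F and -0.02 in control EpiSCs, whereas the ATF4 and glycolysis lists lie below 0 in both lines.

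Unstimulated GY118F replicate 3 stood apart from the other 2 arrays of its group in a small set of features. It lay over 0.5 from the group median in 43 features, and in 43 of these it lay on the side of the stimulated GY118F arrays. Of the 672 called differences 15 were in this set, among them Lefty1, Irf1, Gbp2b, Cd40, Gbp2, Nodal, Fgf8 and Pde1b, against 0 in each of the other 10 arrays. It was not the array with most such features: control G-CSF replicate 1 lay over 0.5 from its group median in 63 features and unstimulated control replicate 2 in 20, none of them called, and the other 8 arrays in at most 7. For the 2 stimulated GY118F arrays the median is the midpoint of the pair, so their counts cannot be compared with those of groups of 3. Gbp2 for example was at 8.57 and 8.56 in replicates 1 and 2 and at 9.15 in replicate 3, and Cd40 at 8.53 and 8.23 and at 9.25. Socs3 (8.98 against 8.96 and 8.94) and Stat3 (7.83 against 7.92 and 7.84) did not share this shift. Without the array, the differences were 2.38 for Irf1, 2.40 for Gbp2b, 2.39 for Cd40, 2.12 for Gbp2, 2.06 for Nodal and 1.73 for Fgf8, each larger than with it, and 848 features were called, 623 of them shared with the 672 in the same direction. Pde1b was then called lower in control EpiSCs as well (-0.38; limma adjusted p = 8.89e-05).

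Genes with more than 1 probe gave a check on the chosen probe. For 128 more upward genes 178 other probes were measured, of which 168 had the same sign, 60 were called in the same direction and 0 in the opposite one. For 70 more downward genes 98 other probes were measured, with 87 of the same sign, 22 called in the same direction and 0 in the opposite one. The other probes had a median difference of 0.24 against 0.49 for the chosen ones upward and -0.21 against -0.39 downward. Another probe of some named genes was not called: 0.19 for Fgf8, -0.09 for Fgfr2, 0.07 for Slc30a3, 0.11 for Klf6 and 0.05 for Psmb8. The same held for Lss (0.03), Car14 (0.01), Meis2 (-0.21) and Dusp4 (0.05, 0.10 and -0.04). It also held for Tnfaip2 (0.03), Fdps (0.21), Irf9 (0.26), Etv5 (0.25), Gadd45g (0.30) and Foxh1 (-0.12), and the genes given are examples. Insig1 had another probe that was called (0.45) and another that was not (-0.18). So had Bcl2l11 (0.59 and 0.14), Ccnd2 (-0.71 and -0.10) and Trib3 (0.40 and 0.38). Irf1 had a probe that was not called (0.24) beside others that were. Every group mean was under 7.62 in 8 of the 432 and 4 of the 240 features, against 1703 of all 11208. At least 1 group mean was under 7.62 in 133 of the 432 and 55 of the 240, against 3296 of all 11208, and a difference that rests on such a mean is limited by the dim end of the scale.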

How the data were processed

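The deposited log2 values of 11 Illumina mouse arrays were used. The submitters' processing notes name lumi, without a version. Whether its plain log2 or its variance-stabilizing transformation was applied is not stated there; under the second, changes of dim features are understated. Sorted values differed between arrays by at most 0.00116, so they had been quantile-normalized before deposit. RNA was extracted with a Qiagen kit and labelled with biotin, per the labels' protocols.

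Of 15718 probes, 13711 had 1 gene symbol in a platform annotation, 5 had several and 2002 had no entry. The match by gene number to RefSeq changed 0 symbols. The probe with the highest mean was kept for each of 9201 symbols, and 2007 features have no single symbol, which gives 11208 features; no filter on dim features was applied.

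One limma 3.58.1 model (lmFit and eBayes, R 4.3.3) held the 4 groups and no replicate block. Tests were two-sided, and Benjamini-Hochberg adjusted p over the 11208 features had to be under 0.05. Tables were made with Python 3.11.15. The fit was tested on simulated data. Titles and source names number the stimulated GY118F arrays differently; the source names (replicates 2 and 3) were used.

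The members and the 41 gene lists were chosen with earlier results of these data known. Genes named are the 20 largest called differences in each direction, the 8 largest in each class of calls, up to 8 called members of each list and 9 fixed genes, all with a single, non-provisional symbol. The alternatives comprised replicate blocks by source names or titles, other filters, thresholds and scalings, array weights and leaving out each array.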

Additional observations from a re-analysis of the deposited data

Results flagged for a closer look

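Each result here has changes of opposite direction in the lines, or is a test of the difference itself. The change after G-CSF differed between the lines by limma's Benjamini-Hochberg adjusted p in 432 features upward and 240 downward. In the genes that follow, the changes after G-CSF were opposite in GY118F and control EpiSCs, each past the threshold, and the difference itself was tested. Upward differences were 3.18 for Socs3, 2.17 for Irf1, 1.60 for Irgm2, 1.39 for Tmem51, 1.35 for Igtp, 1.29 for Zfp36, 1.14 for the insulin-like growth factor binding protein gene Igfbp3 and 1.13 for Pdzrn3. Tmem51 was at 8.73 and 8.55 in GY118F EpiSCs with G-CSF, 7.88 to 7.95 in unstimulated GY118F EpiSCs, 8.12 to 8.28 in control EpiSCs with G-CSF and 8.84 to 8.88 in unstimulated control EpiSCs. Downward differences were -2.26 for Wnt8a, -1.67 for Sox9, -1.31 for Irx3, -1.24 for Rtl8a, -1.13 for the lipid phosphatase gene Plpp3, -0.86 for Rtl8c, -0.85 for Lhpp and -0.72 for Oat, which encodes ornithine aminotransferase. Rtl8a and Rtl8c are retrotransposon-derived genes of one family, whose near-identical copies can share probe signal, so their values are uncertain. Rtl8a was at 12.58 and 12.35 in GY118F EpiSCs with G-CSF, 12.81 to 13.14 in unstimulated GY118F EpiSCs, 12.01 to 12.23 in control EpiSCs with G-CSF and 11.33 to 11.59 in unstimulated control EpiSCs.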

How the results depend on the processing

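Main counts were 432 more upward and 240 more downward features, 155 with a rise in GY118F EpiSCs alone, 98 with a fall in control EpiSCs alone, 79 with a fall in GY118F EpiSCs alone and 60 with a rise in control EpiSCs alone. Here alone means that the other line was not called, which does not show that it was unchanged. In that order they were 232, 129, 71, 50, 35 and 30 without the dimmer 50 percent of features, 220, 100, 93, 47, 37 and 24 at adjusted p under 0.01, and 197, 81, 76, 30, 26 and 16 past 1.4-fold, where fewer features could pass. Array weights gave 92 rises in control EpiSCs alone. Leaving out 1 array gave 278 (without GY118F G-CSF replicate 2) to 496, 151 (without unstimulated GY118F replicate 2) to 352, 93 (without GY118F G-CSF replicate 2) to 166, 59 (without control G-CSF replicate 2) to 109, 39 (without unstimulated GY118F replicate 2) to 125, and 40 (without unstimulated control replicate 2) to 79, each highest value without unstimulated GY118F replicate 3. The cause was not tested. Where 1 stimulated GY118F array is left out, the other is assumed to vary like the other groups.

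Deviations of arrays with the same replicate number correlated at r over 0.1 in 7 of 15 pairs by source names and 9 of 15 by titles. In the first numbering only the stimulated GY118F arrays took source-name numbers, and the rest took those of their titles. No label states a pairing, so the main fit held no replicate block. These correlations cannot decide whether equal numbers mark a shared batch. By titles the median r was 0.246 in same-number pairs and -0.0911 in others. With a replicate block the counts were 412, 221, 150, 95, 66 and 60 in the same order, and 475, 300, 177, 110, 97 and 71 with the titles' numbers. Either block ended the calls of Msx1 and Otx2 (limma adjusted p of 0.0502 to 0.0705), and the block by source names also those of Irx2, Bcat1, Lss, Actn1 and Plk1 (0.0513 to 0.0767).

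Over 152 named genes, 0 differences reversed; 33 lost their call in at least 1 fit that left out an array and 48 under another setting. No scaling moved the median of all features by over 0.1. The number of arrays and the dim end of the scale limit what could be called.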
